A study of Mus musculus with 6 samples.

Results

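The genes described here encode the machinery that copies DNA at a replication fork and packs the new strands into chromatin. They were taken from a list of 36 gene symbols covering DNA polymerases and primase, the sliding clamp and its loaders, flap endonuclease and ligase, single-strand binding proteins, helicase cofactors, fork protection factors, chromatin assembly factors and maintenance methylation. A probe set (a group of short probes that reads 1 transcript) was taken when the platform annotation gave it exactly 1 symbol and that symbol was on the list. This gave 69 probe sets of 35 genes, out of 45037 probe sets and 18193 named genes in all. Chaf1a, the large subunit of the chromatin assembly factor, is not analysed here.

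The study profiled mouse uterus at day -1 of the artificial decidual response. In that model, hormone treatment and a uterine stimulus make the endometrial stroma differentiate as in pregnancy. The control group was 3 samples labelled Ihhf/f, with floxed alleles of Indian hedgehog (Ihh), a ligand made by uterine epithelium that signals to the stroma. The other group was 3 samples labelled Ihhd/d, which carry the same floxed alleles together with PRcre, a Cre recombinase driven by the progesterone receptor locus, and are called Ihh-ablated below. The genotype labels name no Cre in the controls, so an effect of the Cre itself cannot be told apart from that of losing Ihh. The sources used here give neither strain background nor age, nor which exons were removed, nor if samples were separate mice. The p-values therefore measure only how far these samples spread, and that spread may be technical. The source field names a SmoM2 model for both groups, against the titles and genotypes, which were used for grouping. Each sample was read on 1 array, and the values are the authors' processed intensities on a linear scale. Median intensities were 125.8, 142.5 and 125.8 on control arrays 1 to 3, and 124.6, 123.3 and 121.4 on Ihh-ablated arrays 1 to 3. Every Ihh-ablated median thus lay below every control median. Control replicate 2 had the highest median and the lowest weight when limma weighted the arrays (0.24, against 0.80 to 2.02 on the others). With 3 arrays per group, the number of arrays limits the precision. The 8 uterine marker genes, among them Pgr, Esr1 and Hoxa10, were all measured. Their summed intensity lay between 14684 and 16245 in the controls and between 16429 and 17883 in Ihh-ablated uteri, a little higher on each Ihh-ablated array, and 0 of the 8 were called (limma; at an unadjusted p under 0.05, 1 was lower and 3 were higher).

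At a replication fork the CMG helicase (Cdc45, the MCM ring and the GINS complex) unwinds the double strand, and RPA coats the exposed single strands. Polymerase alpha with primase starts each strand, polymerase epsilon extends the leading strand, and polymerase delta extends the lagging strand. The clamp PCNA, loaded by replication factor C, holds the polymerases on the template and recruits FEN1 and LIG1 to trim and seal the lagging strand, CAF-1 to deposit histones, and DNMT1 with UHRF1 to copy methylation marks. Many of these genes are transcribed under E2F control as cells enter S phase. In the rodent uterus, oestrogen drives epithelial division, while progesterone holds it back and allows stromal cells to divide.

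A share of the replication fork genes, led by Pclaf and Uhrf1, was lower in Ihh-ablated uteri. Of 35 genes, each represented by its brightest probe set, 14 fell and 0 rose at an adjusted p under 0.05 (limma, Benjamini-Hochberg over 33778 tested probe sets), and 21 did not pass. Over all 15530 tested genes, 1.53% were called lower and 1.28% called higher at the adjusted threshold. At an unadjusted p under 0.05, 24 of the 35 were lower and 0 higher. The share of all tested genes at that looser threshold was not counted, so the 24 have no background beside them. The median log2 difference (Ihh-ablated minus control) of the 35 genes was -0.43, with quartiles of -0.63 and -0.27, against -0.04 for all tested genes. The difference was negative for 34 of the 35, and the exception was Pold3 at 0.04. In 30 of them all 3 Ihh-ablated arrays lay below all 3 control arrays, which was so for 19.0% of all tested genes. The falls ranged from 2.02 on the log2 scale for Pclaf to 0.37 for Rpa1, and 10 of the 14 called genes changed at least 1.5-fold. In whole tissue, fewer dividing cells and less of these transcripts per cell cannot be told apart.

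**Figure D1:**
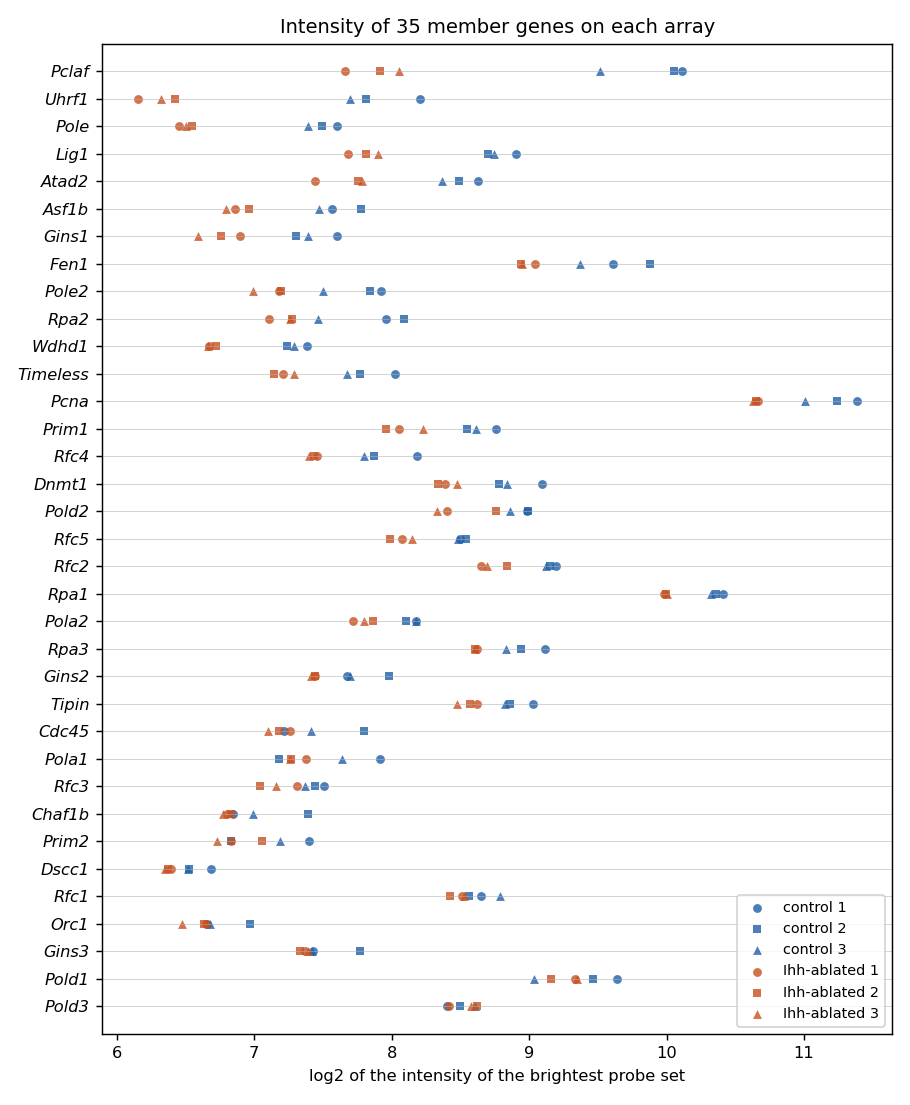
Intensity of the 35 genes on each of the 6 arrays (x axis, log2 of the intensity of the brightest probe set; each point is 1 array, blue for control and orange for Ihh-ablated, with a symbol for each replicate), ordered from the largest fall at the top. In Pclaf and Uhrf1 the groups stand far apart, while in Pold3, at the bottom, they overlap.

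The count of called genes depended on single arrays. With a control array left out it was 4 (replicate 1), 8 (replicate 2) or 20 (replicate 3). The share of all tested genes called lower was then 0.554%, 0.959% and 7.55%, against 1.53% with all 6 arrays. With an Ihh-ablated array left out the count was 4, 6 or 5 for replicates 1, 2 and 3. The share of all tested genes was then 0.515%, 0.818% and 0.734%. The difference of 33 genes was negative in every setting in which they were tested. The other 2, Pold1 and Pold3, changed sign without control replicate 1, to 0.03 and -0.02, and Pold3 was at 0.00 or just below without Ihh-ablated replicate 2. Only 4 genes, Pclaf, Uhrf1, Pole and Lig1, were called whichever array was left out. With array medians set equal, 6 genes were called, with a median of -0.34 over the 35. In that fit the median of all tested genes was 0.05, and 0.831% of them were called lower.

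Transcripts of other tissues also varied between arrays. The summed intensity of 10 adipocyte markers ran from 1917 to 7953 in the controls and from 6088 to 16139 in Ihh-ablated uteri with none listed at 0. Of the 9 adipocyte markers tested, 0 were called (limma), while at an unadjusted p under 0.05, 1 was lower and 6 were higher. With the mean of these markers as a covariate, which takes 1 of 4 residual degrees of freedom, 1 of the 35 fork genes, Pclaf, was called, and the median was -0.39. Of all tested genes 0.129% were then called lower, with a median of -0.06. Of the 35 differences 34 were negative in that fit, with Pold1 turning to 0.12 and Pold3 to -0.09. Pancreas markers summed to 82148 in Ihh-ablated replicate 2, against at most 3019 on the other arrays. Skeletal muscle markers summed to 14021 in control replicate 3, against at most 5637 on the others. They lay between 2274 and 2864 on the Ihh-ablated arrays, below every control, and 1 of 9 tested, the skeletal actin gene Acta1, fell (log2 difference -1.73). Acta1 alone gave most of the sum in control replicates 1 and 2 (4164 of 5637 and 3559 of 5348). In those controls the gap to the Ihh-ablated sums was largely that of this 1 gene. Without Ihh-ablated replicate 2 and control replicate 3, 13 fork genes were called, 10 of them among the 14, with a median of -0.50. In that fit 4.22% of all tested genes were called lower, against 1.53% with all 6 arrays, and the median of all tested genes was -0.05. Epithelial markers summed to between 15004 and 22337 in the controls and between 20916 and 23162 in Ihh-ablated uteri, and endometrial stroma markers to between 54430 and 58727 and between 52667 and 54717. Both sums overlapped between groups, but a sum is led by its brightest genes and can hide changes of single markers. Of 12 epithelial markers 0 were called by limma, and 0 were lower and 5 higher at an unadjusted p under 0.05. Of 13 stroma markers 2 were called lower, Thy1 (log2 difference -1.44) and Vim (-0.37), and 1 higher, Dcn (0.24). At the unadjusted threshold 4 stroma markers were lower and 3 higher. Leukocyte markers summed to between 2896 and 3037 in the controls and between 2880 and 3598 in Ihh-ablated uteri. Of 6 tested, 0 were called by limma, and 0 were lower and 2 higher at an unadjusted p under 0.05. Endothelium and smooth muscle sums also overlapped between groups. Of 9 endothelium markers 1 was called, Cdh5 (log2 difference -0.57), and of 10 smooth muscle markers 1 was called, Actg2 (-0.25). The part of cell content in the fall of the fork genes was not tested further.

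Of 8 genes of the clamp and its loaders 3 fell, with a median log2 difference of -0.43, among them the gene with the largest fall of the 35. Pclaf encodes a small PCNA-binding protein that is made in dividing cells and degraded as they exit mitosis. Its brightest probe set read 1109, 1061 and 733.2 in the controls and 202.6, 241.2 and 265.3 in Ihh-ablated uteri. Control replicate 3 was the lowest control, yet still well above every Ihh-ablated array. The means were 967.7 ± 204.5 and 236.4 ± 31.6 (SD, n = 3 each), a 4.05-fold fall (log2 difference -2.02, SE 0.17, limma adjusted p = 0.00139). A dimmer probe set read -0.83 on the log2 scale with an adjusted p of 0.0848, which did not pass. The dimmest Pclaf probe set, left out of the test, overlapped between groups.

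Pcna, the clamp itself and the brightest of the 35 genes, fell less. It read 2668, 2414 and 2059 in the controls and 1627, 1611 and 1579 in Ihh-ablated uteri, which is a 1.47-fold fall (log2 difference -0.56, SE 0.09, limma adjusted p = 0.0178). The 3 Ihh-ablated arrays were nearly equal (SD 24.4) while the controls spread widely (SD 305.7). Within each array, Pclaf was lower relative to Pcna in Ihh-ablated than in control uteri by 1.46 on the log2 scale, and the groups did not overlap (exact two-sided permutation p = 0.1, the smallest that 3 against 3 allows, and 0.175 adjusted over 7 pairs of partner genes chosen after their values were seen).

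Of the clamp loader subunits only Rfc2 passed, and it fell (log2 difference -0.43, adjusted p = 0.0489). Rfc4 at -0.52 (adjusted p = 0.0746), Rfc5 at -0.43 (0.0572) and Rfc3 at -0.27 (0.221) did not pass. Rfc1, the large subunit that the canonical loader alone contains, had the smallest difference of the group. Its brightest probe set read 402.6, 378.9 and 442.2 in the controls and 364.5, 343.9 and 368.7 in Ihh-ablated uteri (log2 difference -0.18, 95% interval -0.41 to 0.04, limma adjusted p = 0.297). The Pcna to Rfc1 ratio within an array overlapped between groups (difference of log2 ratio -0.38, exact permutation p = 0.2). The other 2 Rfc1 probe sets read -0.07 and 0.04, and their groups overlapped. Dscc1, part of an alternative loader used for sister chromatid cohesion, read -0.20 (adjusted p = 0.314). Its dimmer probe set, below the limit for testing, gave 71.0, 62.7 and 47.4 in the controls and 32.0, 29.0 and 37.9 in Ihh-ablated uteri, and these groups did not overlap.

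Polymerase and primase subunits differed widely among themselves: 2 of 9 fell, with a median of -0.36 and a range of -0.99 to 0.04. Pole, the catalytic subunit of the leading-strand polymerase, read 194.1, 180.4 and 167.9 in the controls and 87.7, 93.5 and 90.8 in Ihh-ablated uteri. Every Ihh-ablated array lay far below the lowest control (1.99-fold lower, log2 difference -0.99, SE 0.12, limma adjusted p = 0.00468). Pole2, its second subunit, differed by -0.63 with an adjusted p of 0.0572. Prim1, the catalytic subunit of primase, fell by 0.56 (adjusted p = 0.0390), and its dimmer probe set fell by 0.65 (0.0178). Prim2, the regulatory primase subunit, read -0.27 (adjusted p = 0.351) with overlapping groups. The Prim1 to Prim2 ratio within an array overlapped between groups (difference of log2 ratio -0.29, exact permutation p = 0.3). Pola1 and Pola2, the catalytic and accessory subunits of polymerase alpha, read -0.28 (adjusted p = 0.360) and -0.36 (0.105).

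Pold3 had the smallest difference of all members. It is an accessory subunit of polymerase delta that also serves break-induced replication, as known from yeast and human cells. On the brightest probe sets, the 95% interval of Pold3 includes 0. So do those of Pola1, Prim2, Pold1, Rfc1, Rfc3 (narrowly), Dscc1, Orc1, Cdc45, Gins3 and Chaf1b. For Pold1, Rfc3, Cdc45, Gins3 and Chaf1b, the interval of a dimmer tested probe set lay below 0. Pold3 read 338.2, 361.8 and 390.5 in the controls and 342.2, 392.7 and 382.8 in Ihh-ablated uteri. These groups overlapped (log2 difference 0.04, 95% interval -0.20 to 0.27, limma adjusted p = 0.848). Its other probe sets read 0.21 and -0.03 and also overlapped. Pold2 differed by -0.45 (adjusted p = 0.103). Pold1, the catalytic subunit, differed by probe set. The brightest read 796.4, 705.2 and 524.8 in the controls and 643.9, 572.8 and 651.3 in Ihh-ablated uteri (log2 difference -0.10, adjusted p = 0.691). The dimmer one read 296.7, 331.2 and 265.4 in the controls and 177.4, 203.2 and 181.7 in Ihh-ablated uteri, where it fell by 0.66 (limma adjusted p = 0.0287). The Pole to Pold3 ratio was lower in Ihh-ablated uteri by 1.03 on the log2 scale without overlap (exact permutation p = 0.1, and 0.175 adjusted over the 7 pairs).

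**Figure D2:**
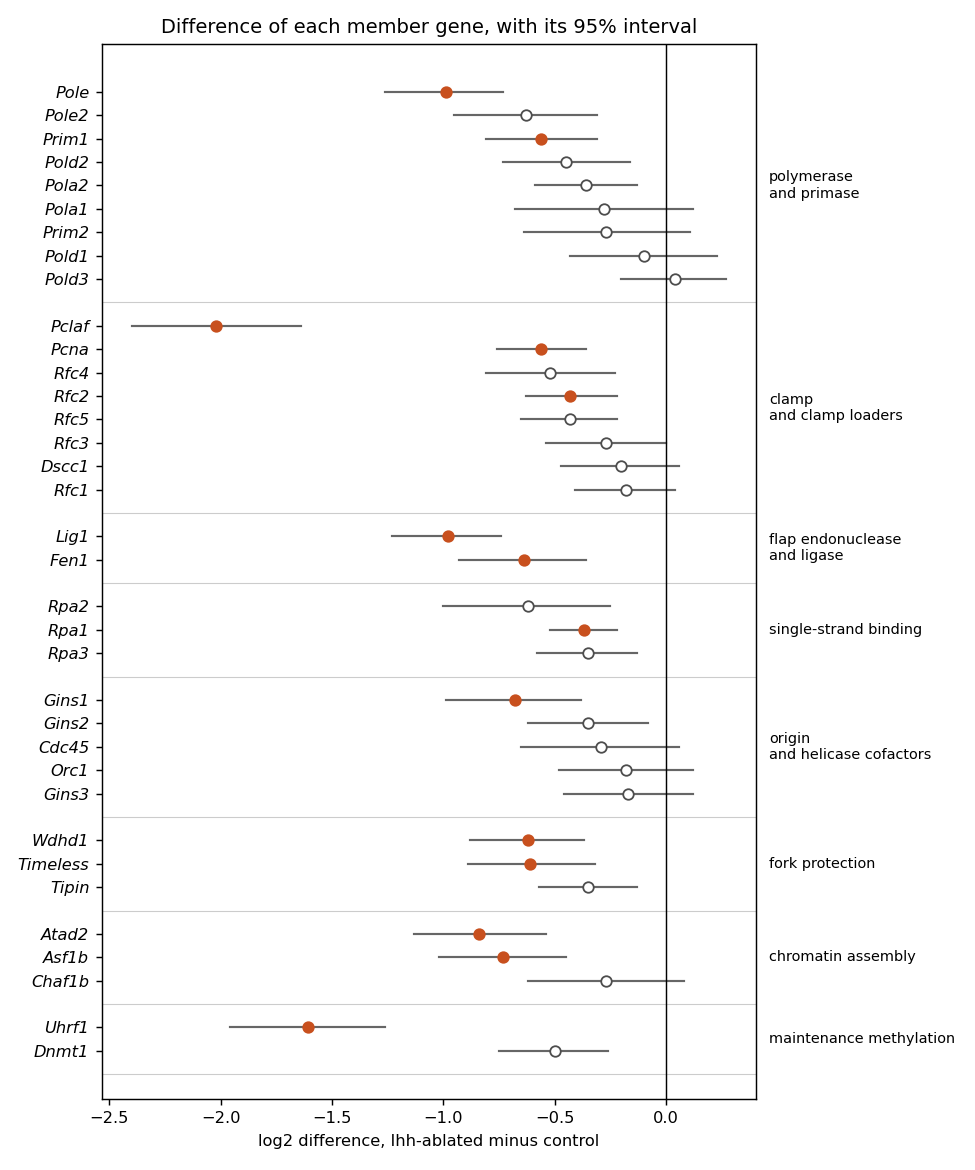
Log2 difference of each gene (x axis, Ihh-ablated minus control, with its 95% interval from limma), grouped by role. Filled points were called at an adjusted p under 0.05; 14 points are filled, all to the left of 0, and the widest range within a role is that of the clamp group, from -2.02 to -0.18.

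The 2 genes of lagging-strand maturation both fell. Lig1, the ligase that seals Okazaki fragments, read 478.1, 415.8 and 429.0 in the controls and 205.6, 225.4 and 239.3 in Ihh-ablated uteri, with a wide gap between groups. This was a 1.97-fold fall (log2 difference -0.98, SE 0.11, limma adjusted p = 0.00354). Fen1, the endonuclease that removes the displaced flap, fell from 782.3, 940.6 and 661.1 to 526.4, 491.7 and 493.0 (log2 difference -0.64, adjusted p = 0.0361). Its second probe set read -0.58 with an adjusted p of 0.0656. The Lig1 to Fen1 ratio overlapped between groups (difference of log2 ratio -0.34, exact permutation p = 0.3). The repair ligases did not pass: Lig3, used in base excision repair and in mitochondria, read -0.72 (adjusted p = 0.157) with overlapping groups, since control replicate 3 (702.3) lay among the Ihh-ablated arrays, and Lig4, the end-joining ligase, read -0.14 (0.514).

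Of the 3 subunits of the single-strand binding trimer 1 passed. Rpa1 fell by 0.37 on the log2 scale, with a small spread (1318 ± 41.6 in the controls and 1019 ± 6.63 in Ihh-ablated uteri, SD, n = 3 each; limma adjusted p = 0.0271). Rpa2 at -0.62 (adjusted p = 0.0893) had the larger difference but also the larger spread, with a control SD of 49.5 around 232.5. Rpa3 read 555.8, 490.2 and 455.5 in the controls and 392.8, 389.8 and 389.1 in Ihh-ablated uteri (log2 difference -0.35, adjusted p = 0.106). On the brightest probe sets the groups did not overlap for any of the 3 subunits.

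Among 5 origin and helicase cofactors 1 passed, with a median of -0.29. Gins1, a subunit of the GINS complex, fell from 194.6, 157.6 and 167.7 to 119.1, 108.4 and 96.3, with no overlap (log2 difference -0.68, adjusted p = 0.0391). The other measured GINS subunits read -0.35 for Gins2 (adjusted p = 0.145), -0.17 for Gins3 (0.424) and -0.07 for Gins4 (0.734), which is not on the member list. The brightest Gins3 probe set read 172.5, 218.0 and 171.1 in the controls and 165.6, 161.4 and 167.6 in Ihh-ablated uteri, groups that barely separate. The dimmer probe sets of Gins2 and Gins3 read -0.56 and -0.43 without overlap. They did not pass (limma adjusted p = 0.0734 and 0.0934). Cdc45, which bridges the helicase, read -0.29 (adjusted p = 0.290) on its brightest probe set, where the groups overlapped. On the dimmer one it fell from 107.9, 113.1 and 107.4 to 64.4, 71.7 and 63.8 (log2 difference -0.72, limma adjusted p = 0.0181). Orc1, the origin recognition subunit, read -0.18 (adjusted p = 0.420).

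Of 3 fork protection genes 2 fell, with a median of -0.61. Wdhd1, which couples the helicase to polymerase alpha, read 167.1, 151.3 and 156.5 in the controls and 101.7, 105.8 and 101.2 in Ihh-ablated uteri (log2 difference -0.62, adjusted p = 0.0277). Timeless read 260.4, 218.6 and 204.5 in the controls and 148.3, 141.6 and 156.4 in Ihh-ablated uteri (-0.61, limma adjusted p = 0.0457). Tipin, which with Timeless stabilises paused forks, read 522.4, 463.8 and 453.5 in the controls and 393.3, 379.3 and 355.1 in Ihh-ablated uteri, which did not pass (-0.35, 0.103). On the brightest probe set of each of the 3 genes every Ihh-ablated array lay below every control array.

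Of 3 measured chromatin assembly factors 2 fell, with a median of -0.73. Atad2, a bromodomain ATPase found on newly replicated chromatin in human cells, fell from 395.1, 359.8 and 330.0 to 173.5, 215.8 and 220.4 (log2 difference -0.84, adjusted p = 0.0147). Asf1b, the histone chaperone isoform of dividing cells, fell from 189.7, 219.7 and 177.1 to 116.4, 124.5 and 111.2 (-0.73, limma adjusted p = 0.0231). On these probe sets neither gene overlapped between groups. A second, dimmer Atad2 probe set read 69.8, 108.1 and 79.9 in the controls and 80.8, 60.3 and 68.8 with Ihh ablated, where the groups overlapped (-0.28, adjusted p = 0.368). The Asf1b paralogue Asf1a read 803.6 ± 23.5 in the controls and 783.4 ± 28.0 in Ihh-ablated uteri (SD, n = 3 each; log2 difference -0.04, adjusted p = 0.782), and within an array Asf1b was lower relative to Asf1a by 0.69 on the log2 scale without overlap (exact permutation p = 0.1, 0.175 adjusted over the 7 pairs). Atad2b, the paralogue of Atad2, read 0.28 (adjusted p = 0.271). Chaf1b, the middle subunit of CAF-1, again differed by probe set. The brightest read 114.9, 168.0 and 127.0 in the controls and 111.8, 114.1 and 109.5 in Ihh-ablated uteri (-0.27, adjusted p = 0.313). The other fell from 144.5, 172.5 and 135.5 to 93.0, 96.1 and 98.7 (-0.65, adjusted p = 0.0402).

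On the brightest probe sets, maintenance methylation showed a large fall of the reader and a smaller difference of the enzyme. Uhrf1, which recognises hemimethylated DNA and recruits DNMT1, read 295.5, 225.4 and 207.9 in the controls and 71.2, 85.7 and 80.0 in Ihh-ablated uteri. No Ihh-ablated array came near a control array, and the fall was 3.05-fold (log2 difference -1.61, SE 0.16, limma adjusted p = 0.00243). Its dimmer probe set fell by 0.59 (limma adjusted p = 0.0499), close in size to the Dnmt1 differences of -0.50 and -0.54 below. Dnmt1 itself read 546.1, 440.4 and 457.1 in the controls and 335.5, 322.8 and 355.4 in Ihh-ablated uteri, which just missed the threshold on the brightest probe set (-0.50, adjusted p = 0.0536). Another Dnmt1 probe set was called lower (-0.54, limma adjusted p = 0.0406). The Uhrf1 to Dnmt1 ratio of the brightest probe sets was lower by 1.10 on the log2 scale without overlap (exact permutation p = 0.1, 0.175 adjusted over the 7 pairs). The paralogue Uhrf2 read -0.08 (adjusted p = 0.571), and the de novo methyltransferases Dnmt3a and Dnmt3b read 0.20 (0.414) and -0.03 (0.889).

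Different probe sets of the same gene did not always give the same size of change. Over all 62 tested member probe sets, 20 were called lower and 0 higher, where 1.11% of all tested probe sets were called lower. Of 22 genes with more than 1 tested probe set, all probe sets had the same sign in 20, and Pold3 and Rfc1 were the exceptions. In 11 of the 22 the second brightest probe set had the more negative difference. For 4 genes, Pold1, Cdc45, Chaf1b and Dnmt1, a dimmer probe set was called and the brightest was not. The reverse held for 6 genes, Pclaf, Rfc2, Fen1, Rpa1, Timeless and Atad2. Both kinds were called for Prim1 and Uhrf1. Counting any probe set, 18 of the 35 genes had a call. The remaining 7 member probe sets were too dim to be tested, and in 4 of them each Ihh-ablated array read lower than each control.

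**Figure D3:**
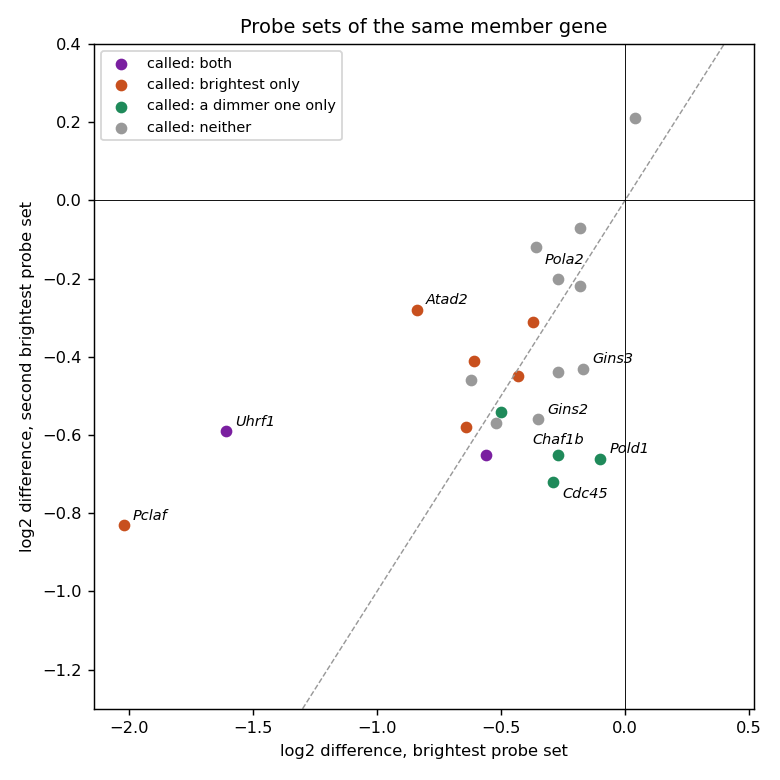
Log2 difference (Ihh-ablated minus control) of the brightest probe set (x axis) against the second brightest (y axis) for the 22 genes with more than 1 tested probe set; the dashed line marks equal values. Pclaf and Uhrf1 lie far above the line, with a larger fall on the brightest probe set, and Pold1, Cdc45 and Chaf1b lie below it.

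The size of the fall did not go with brightness. Across the 35 genes the difference and the mean log2 intensity had a Spearman correlation of -0.03 and a Pearson correlation of -0.01. These are descriptions across genes that share the same 6 arrays and are not independent replicates. The genes lay between the 34.4 and the 97.5 percentile of all probe sets by mean intensity, Dscc1 lowest and Pcna highest.

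**Figure D4:**
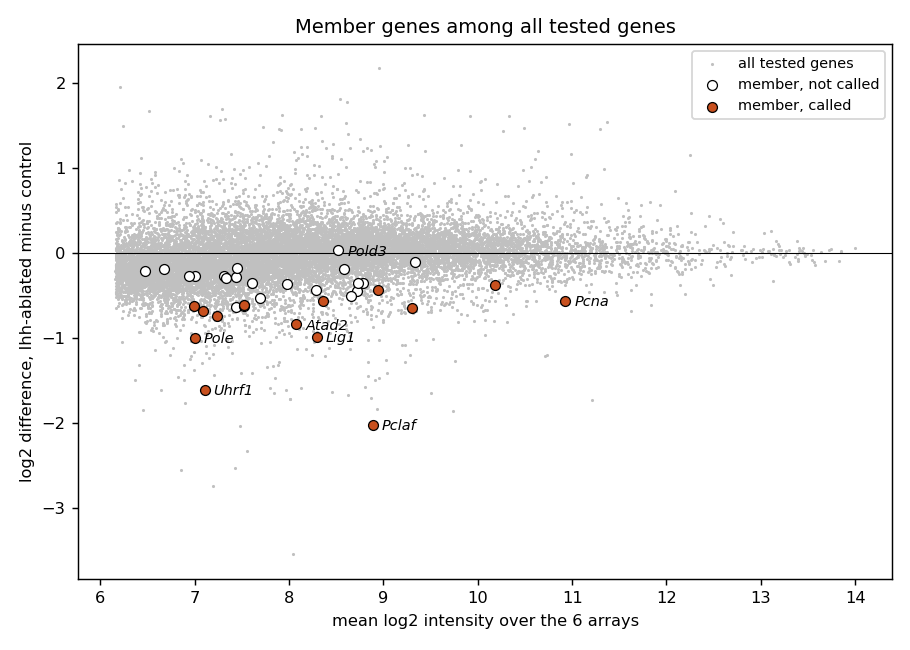
Log2 difference (y axis, Ihh-ablated minus control) against mean log2 intensity over the 6 arrays (x axis) for all 15530 tested genes in grey, with the 35 fork and chromatin assembly genes as circles, filled where called. All circles but that of Pold3, at 0.04, lie below 0, from dim to bright genes.

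The control arrays differed from each other more than the Ihh-ablated arrays did. The mean of the 35 genes, each set against its own 6-array mean, was 0.34, 0.28 and 0.16 on the log2 scale in control replicates 1, 2 and 3, and -0.28, -0.24 and -0.27 in the Ihh-ablated arrays. The groups did not overlap, and their SDs were 0.09 and 0.02. Control replicate 3 was the lowest control in 21 of the 35 genes, and control replicate 1 the highest in 22. The SD relative to the mean was larger in control for 27 of the 35 genes, with a median of 11.2% in the controls and 5.43% in Ihh-ablated uteri. Control replicate 3 was also the array with the most skeletal muscle transcripts, and control replicate 1 the one with the fewest adipocyte transcripts.

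Neighbouring parts of the replication pathway were compared from lists written beside the member list. Of 16 MCM helicase and licensing genes, 9 fell and 0 rose, with a median log2 difference of -0.79. Mcm6 (-1.49) and Mcm5 (-1.58), subunits of the helicase ring, fell most, and Cdc6, which loads the ring at origins, fell by 1.04 (limma adjusted p = 0.000492, 0.00121 and 0.0071). Of 12 genes of deoxynucleotide supply, 4 fell and 0 rose, with a median of -0.32: Rrm2 (-1.65), Tk1 (-1.40), Dut (-0.94) and Rrm1 (-0.72).

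Other lists held few calls by limma. Of 13 further subunits of the same complexes and related loaders, 0 were called, with a median of -0.07, and 3 were lower and 0 higher at an unadjusted p under 0.05. The lowest was Chtf18, the large subunit of the cohesion loader (-0.59, adjusted p = 0.0851). Of 14 repair and translesion polymerases, which copy damaged or repaired DNA outside the fork, 0 were called, with a median of -0.02 and a range of -0.18 to 0.34. At the unadjusted threshold 0 of them were lower and 2 higher. Of 12 genes of replication-independent chromatin assembly 0 were called (median -0.04), with 1 lower and 0 higher unadjusted. Of 7 other DNA methylation enzymes 0 were called (median -0.08), again with 1 lower and 0 higher unadjusted. Of 11 repair ligases and nucleases, 1 fell, Rnaseh2b (-0.52, adjusted p = 0.0254), a subunit of the enzyme that removes ribonucleotides from DNA. That list had a median of -0.23, with 5 lower and 0 higher unadjusted, and its summed intensity was lower on every Ihh-ablated array (4699 to 4805) than on any control (5237 to 6472). The difference between these lists and the members was not tested.

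**Figure D5:**
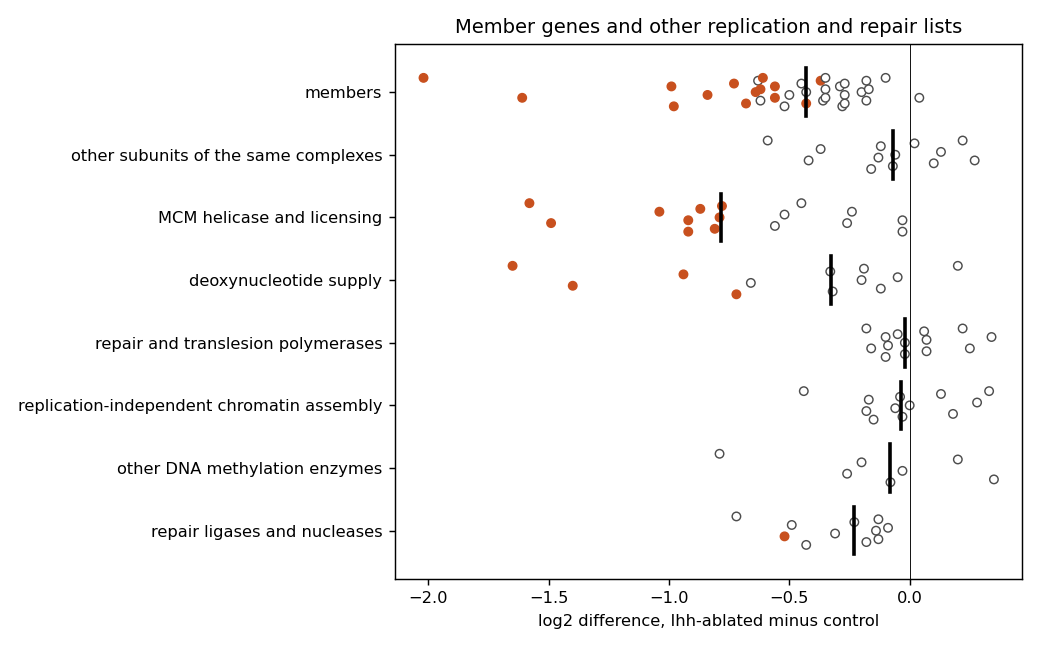
Log2 difference (x axis, Ihh-ablated minus control) of each gene in the member list and in 7 neighbouring lists; filled points were called at an adjusted p under 0.05 and black bars are medians. The medians of the members (-0.43), of MCM helicase and licensing (-0.79) and of deoxynucleotide supply (-0.32) lie left of those of the repair polymerases (-0.02), of replication-independent assembly (-0.04), of other methylation enzymes (-0.08) and of other subunits (-0.07), and that of the repair ligases and nucleases (-0.23) lies between.

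Promoters are shown because many genes of this class are known to be under E2F control. Any link between such sites and the differences seen here was not tested. RefSeq promoter windows of 300 bases (GRCm38.p6, 250 before to 50 after the start) were available for 28 of the 36 genes, Chaf1a among them, with 35 windows. An E2F word (TTTCGCGC, TTTGGCGC, TTTCCCGC or TTTGCCGC on either strand) was found in 11 of the 35 windows (31.4%), each of a different gene, against 2.26% of all 32851 promoter windows. By gene, 3 of 10 called genes and 8 of 17 that did not pass held one. The NF-Y word CCAAT, on either strand, was in 54.3% of the member windows and 37.4% of all. The Sp1 word GGGCGG was in 65.7% and 35.7%, and the CHR word TTTGAA in 17.1% and 17.9%. The word TGGGTGGTC, bound by the Gli factors of the hedgehog pathway, was in 0 of 35 windows and in 0.253% of all. None of these words contains another. A match is a description of letters, and no match says only that the exact word is not in the window.

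The lines below give the called genes of largest fall that have a window (Pclaf, Uhrf1, Lig1 and Asf1b), and then 3 genes that hold an E2F word and did not pass (Orc1, Gins3 and Rfc3), chosen after their values were seen. Capitals mark E2F words of 8 bases and CCAAT or its reverse complement. All are written 5′ to 3′ on the strand of the gene; unless stated, they run from 80 bases before the start to 20 after it.
Pclaf, chr9:65890243-65890342, plus strand, E2F word across the start and 2 CCAAT matches: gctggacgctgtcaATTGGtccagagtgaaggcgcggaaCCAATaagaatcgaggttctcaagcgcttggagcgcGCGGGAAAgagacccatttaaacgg
Uhrf1, chr17:56304082-56304181, plus strand, upstream of the downstream start, around an E2F word 185 bases before it: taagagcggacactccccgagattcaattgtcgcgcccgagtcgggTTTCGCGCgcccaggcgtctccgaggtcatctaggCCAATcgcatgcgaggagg
Lig1, chr7:13278841-13278870, plus strand, 30 bases around an E2F word 26 bases after the second listed start: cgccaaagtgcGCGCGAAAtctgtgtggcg
Asf1b, chr8:83955614-83955713, plus strand, no E2F word in the window and 2 CCAAT matches in this stretch: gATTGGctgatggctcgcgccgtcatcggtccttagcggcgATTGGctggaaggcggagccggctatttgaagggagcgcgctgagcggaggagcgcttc
Orc1, chr4:108579374-108579473, plus strand, E2F word 27 bases before the start: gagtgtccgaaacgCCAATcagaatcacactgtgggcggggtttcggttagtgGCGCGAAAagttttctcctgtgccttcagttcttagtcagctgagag
Gins3, chr8:95633479-95633578, plus strand, E2F word 41 bases before the start: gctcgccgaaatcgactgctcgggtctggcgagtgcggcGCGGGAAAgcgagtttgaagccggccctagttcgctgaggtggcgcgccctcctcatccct
Rfc3, chr5:151651189-151651288, minus strand, 2 E2F words side by side at the start: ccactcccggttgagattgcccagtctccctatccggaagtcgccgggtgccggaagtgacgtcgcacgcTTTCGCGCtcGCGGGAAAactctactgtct

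On the brightest probe sets, genes with an E2F word stood at both ends of the range of differences. Pclaf, with a word across its start, had the largest fall, and Pold3, which also holds a word, read 0.04. Orc1, Gins3 and Rfc3, with words starting at most 41 bases before the start, read -0.18, -0.17 and -0.27 and did not pass. Their dimmer probe sets read -0.22, -0.43 and -0.44 and did not pass either. The small differences of Gins3 and Rfc3 thus depend on the probe set. Asf1b and Wdhd1 fell and held no such word in their windows. No test was made of these matches.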

How the data were processed

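Biotinylated cRNA was made from total RNA of 3 control and 3 Ihh-ablated uterus samples and read on Affymetrix arrays, per the labels' protocols. The deposited values are intensities per probe set on a linear scale; how the authors summarised probes, corrected background and normalized arrays was not stated in the labels, and these steps can compress or shift low values. Members and lists were chosen with earlier results of these data known.

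After 64 control probe sets were left out, 45037 remained, 34945 of them with 1 symbol in the platform annotation, 932 with several and 9160 with none. Values under 16 were set to 16 (1821 values) and log2 was taken. Array medians differed by at most 0.231 on the log2 scale, under the limit of 0.3, so the authors' scaling was kept. The lowest 25% of probe sets by mean log2 (under 6.16) were left out, which left 33778. The test was limma 3.58.1 (R 4.3.3), lmFit followed by eBayes with a trend on intensity; it had 4 residual and 5.25 prior degrees of freedom, with Benjamini-Hochberg adjustment over all tested probe sets. A gene is its brightest probe set. Every member may be named; non-members are named when called (at most 6 a list) or when a paralogue of a member; array values were given for called members among the 12 largest differences and for the smallest difference of each role, and for others chosen after their values were seen. In data simulated for this comparison with 33778 probe sets, 98 of 100 changed 2-fold and 100 of 100 changed 4-fold were recovered, with 21 false calls. The simulated noise was independent and normal with the fitted spread, without array effects or transcripts of other tissues. The recovery therefore checks the code and does not give the power or error rate on the real arrays. Partner ratios used the brightest probe set of each gene only and were compared by exact permutation (SciPy 1.17.1). Detection calls were not used. Figures used matplotlib 3.10.9 in Python 3.11.15.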

Additional observations from a re-analysis of the deposited data

How the results depend on the processing

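Among the members, 33 were negative in every setting in which they were tested, and Pold1 and Pold3, neither called, changed sign. Leaving out 1 array at a time gave -0.27 to 0.03 for Pold1 and -0.02 to 0.10 for Pold3 (-0.00 without Ihh-ablated replicate 2), and the adipocyte covariate gave 0.12 and -0.09. The counts of called members, called member probe sets and all called genes moved more, from 14, 20 and 437. They were 6, 9 and 266 with median-centred arrays, where the median was -0.34 for the members and 0.05 for all genes. Without an intensity trend they were 7, 11 and 226. The adipocyte covariate gave 1, 1 and 22, and 3 of the 14 calls of the neighbouring lists remained. Without the filter on dim probe sets 9 members and 12 member probe sets were called. Array weights gave 31 member probe sets and 782 genes. Without control replicate 3 and Ihh-ablated replicate 2 together 1114 genes were called and the member median was -0.50. With the second brightest probe set, neighbouring lists had 9 calls. Leaving out 1 array at a time gave 4 to 20 members, 4 to 31 member probe sets, 111 to 1887 genes and 8 to 21 calls in the neighbouring lists. Replicate numbers are shared between groups but nothing in the labels says that they pair samples, and deviations of same-numbered arrays correlated at -0.152, -0.043 and 0.25; with the replicate block 16 members, 22 member probe sets and 922 genes were called. The cause of these changes was not tested. Detection calls were not used here, so signal over background is unknown and folds of dim probe sets are uncertain.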
